A study of Mus musculus with 8 samples.

Results

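The genes of 3 related chromatin remodelling complexes, BAF, PBAF and ncBAF, were followed through RNA sequencing of mouse regulatory T (Treg) cells in which the ATPase of these complexes, BRG1, had been deleted or reexpressed. The members were chosen by name: 31 subunit genes, matched by gene symbol among the 53465 gene identifiers of the deposited tables, and all 31 were found. BRG1 is the product of Smarca4, so 1 of the 31 members was itself the gene that the study altered.

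The series holds 8 libraries, 1 per condition, from spleen and lymph node Treg cells of C57BL/6 mice aged 3 to 4 weeks, and every genotype label carries R26CAG-FlpoER, a tamoxifen (TAM) activated Flp recombinase. Cre came from the Foxp3 locus (Foxp3YFP-Cre), so that Brg1 is removed in cells that express Foxp3 from that allele. The WT library was BrgF/+ Foxp3YFP-Cre/+, that is, with 1 floxed and 1 normal Brg1 allele. From mosaic females, the Brg1-sufficient library was labelled BrgF/ΔR Foxp3+/+ and the Brg1-deleted library BrgF/ΔR Foxp3YFP-Cre. In these females Cre is active in only part of the Treg cells because Foxp3 lies on the X chromosome. From rKO1 mice, in which every Treg cell carries Cre and which become inflamed, 1 library was untreated (BrgF/deltaR Foxp3YFP-Cre/YFP-Cre), 1 was the GFP+ Brg1-deleted subset and 1 the GFP- Brg1-reexpressed subset, both taken on Day 7 after TAM. A separate experiment gave 2 libraries of activated Treg (aTreg) cells from rKO1 mice on Day 7. One was titled Brg1-deleted but described as BrgF/F and headed as WT in its table, and the other was titled Brg1-reexpressed and described as BrgF/+. They are called here by their titles, as the library labelled Brg1-deleted and the library labelled Brg1-reexpressed, and reads, levels and fold changes were compared only between them.

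SWI/SNF complexes use ATP to slide or evict nucleosomes, which opens enhancers and promoters to transcription factors. Each complex has 1 ATPase, either BRG1 or its paralogue BRM (the product of Smarca2), bound to core subunits, in part shared between the complexes, and to an actin module. Canonical BAF adds an ARID1 and a DPF subunit, PBAF adds ARID2, PBRM1, BRD7 and PHF10, and ncBAF adds BRD9 with BICRA or BICRAL. The question put to the data was whether the other subunits, and Smarca2 first, stood at another level where Smarca4 was deleted.

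The sequences below show where the alleles act and what precedes the start of both ATPase genes. The reversible allele (ΔR) holds a gene trap in an intron, and transcripts stop in it until Flp removes it. In GENCODE release M21, transcript Smarca4-201 has 34 exons, and the end of exon 9 falls exactly behind codon 531, the place at which the fusion to the trap is made. Exons 1 to 9 hold 1853 of the 6354 bases of the transcript (29.2%) and therefore remain in trapped transcripts, as do any exons left in the floxed allele after Cre. The gene values in the tables do not separate exons, so a Smarca4 value counts these pieces too. In the first line, the last 60 bases of exon 9 (chr9:21641026-21641085, plus strand, GRCm38) are in lower case and the first 30 of exon 10 (chr9:21642425-21642454) in capitals. The capitals thus mark coding sequence that a trapped transcript lacks.

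Smarca4 exon 9 to exon 10: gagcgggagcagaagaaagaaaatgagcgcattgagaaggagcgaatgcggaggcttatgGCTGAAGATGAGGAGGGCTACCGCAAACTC

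The promoters are RefSeq sequences of GRCm38.p6, from 250 bases before to 50 bases after the start, at chr9:21615919-21616218 (Smarca4) and chr19:26604910-26605209 (Smarca2), both on the plus strand. Capitals mark matches on either strand to a GC box (GGGCGG) or an ETS site (CCGGAAG). These 2 motifs do not overlap in either sequence.

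Smarca4 promoter: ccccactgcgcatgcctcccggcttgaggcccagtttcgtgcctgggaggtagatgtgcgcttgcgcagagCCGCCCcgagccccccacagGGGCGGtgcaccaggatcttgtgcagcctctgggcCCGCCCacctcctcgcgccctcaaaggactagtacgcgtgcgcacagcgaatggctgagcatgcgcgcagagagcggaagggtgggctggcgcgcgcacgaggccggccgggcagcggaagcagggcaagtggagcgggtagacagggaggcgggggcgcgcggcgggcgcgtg

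Smarca2 promoter: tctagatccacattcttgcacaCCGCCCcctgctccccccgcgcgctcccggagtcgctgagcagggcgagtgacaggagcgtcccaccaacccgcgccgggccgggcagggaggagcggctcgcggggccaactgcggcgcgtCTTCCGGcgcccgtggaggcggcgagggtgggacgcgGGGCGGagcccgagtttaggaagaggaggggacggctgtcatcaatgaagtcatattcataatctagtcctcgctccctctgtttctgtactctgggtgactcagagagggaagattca

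Smarca4 had 33 CpG dinucleotides in its 300 bases and Smarca2 had 29. Over the 24 members with a promoter in the table the median was 32.0, between 4 in Smarcd2 and 62 in Phf10, against 7.0 over all 32851 promoters of this length. A GC box was present in 22 of the 24 members (91.7%) and in 35.7% of all promoters. The ETS letters were present in Smarca2, Smarcc1 and Brd9, 12.5% of the members, and in 8.9% of all promoters, and the Smarca4 window lacks them. Such a match describes the letters of the window and is no measurement of binding. No promoter was available for Actb, Arid2, Bcl7a, Bicra, Bicral, Smarce1 and Ss18.

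The tables give FPKM values, which relate fragments to the exon length of the gene and to the depth of the library. They were turned back into reads (16354450 to 24127693 per library) and scaled between libraries by the trimmed mean of M-values (TMM), which sets the bulk of the genes equal, to give CPM, read counts scaled to a common library size. As each condition had 1 library, no difference below has a replicate check and no p-value is given. Intervals are exact 95% binomial intervals that cover counting error alone. Foxp3, the defining factor of Treg cells, was read at 62.1 to 535 CPM in all 8 libraries. It differed between compared libraries, at 72.9 CPM in WT, 535 in mosaic Brg1-sufficient and 244 in mosaic Brg1-deleted cells. In rKO1 mice it stood at 173 CPM in untreated, 105 in GFP+ and 109 in GFP- cells. By label deleted and reexpressed, aTreg cells had 93.8 and 62.1 CPM of Foxp3, and 942 and 385 CPM of the T cell gene Cd3e. The 6 Treg marker genes summed to 1298 to 2291 CPM in total Treg cells. Markers of other cells were present in part. The 6 B cell genes summed to 12.0 to 74.4 CPM in total Treg and 91.6 and 67.5 CPM in aTreg cells. Cd79b was the highest of them at up to 82.5 CPM, and the factors Pax5 and Ebf1 were at 0.944 CPM or less. The 6 myeloid genes summed to 336 to 688 CPM in total Treg cells. In aTreg cells they summed to 685 and 1059 CPM by label deleted and reexpressed. Lyz2 stood at up to 628 CPM. Cst3 made up 199 to 343 CPM of the total Treg sums, and Itgam was at 1.13 CPM or less in every library. Other features moved with the groups: the 15 proliferation genes summed to 2806 CPM in the GFP- library and to 560 to 1034 CPM in the other 5 total Treg libraries. The 4 erythroid genes summed to 19177 CPM in the aTreg library labelled Brg1-reexpressed and to 1073 CPM in the one labelled Brg1-deleted. Long transcripts were also relatively lower in the GFP- library than in the GFP+ library: the median log2 fold change was 0.31 for 1946 genes with under 2 kb of exons and -0.24 for 950 genes with 10 kb or more. The part of these features in the results was not tested.

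The altered gene followed its labels in the total Treg experiment and went against them in the aTreg experiment. Smarca4 stood at 87.7 CPM in WT, 76.9 in mosaic Brg1-sufficient and 57.9 in rKO1 GFP- cells. In the Brg1-deleted libraries it stood at 47.0 CPM in mosaic, 43.9 in untreated rKO1 and 35.9 in GFP+ cells. All 3 deleted libraries thus lay under all 3 others, and none was near 0. In sorted bulk cells, fewer cells with the transcript and less transcript per cell cannot be told apart. Smarca4 was 1.64-fold higher (interval 1.52 to 1.77) in the sufficient than in the deleted cells of mosaic females and 1.61-fold higher (1.46 to 1.78) in GFP- than in GFP+ cells. GFP- cells did not reach the WT level and were 1.52-fold lower (1.40 to 1.65), a difference within the library-to-library band described below. Of the 11037 genes with at least 5 CPM in some total Treg library, 9.40% were also higher in all 3 sufficient or reexpressed libraries than in all 3 deleted ones, and Smarca4 was the sole member among them. When libraries were scaled by total reads in place of TMM, the Smarca4 levels of deleted and other libraries overlapped.

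In aTreg cells, Smarca4 stood at 71.2 CPM in the library labelled Brg1-deleted and at 59.4 CPM in the library labelled Brg1-reexpressed. It was 1.20-fold lower (1.11 to 1.30) in the latter, against the labels. Whether exchanged labels, the remaining exons of Smarca4 or other differences between the libraries set these values was not tested. The difference lay within the library-to-library band described below, which was drawn from total Treg libraries alone. Every direction given below for aTreg cells rests on the labels. The 15 proliferation genes ran the same way as in rKO1 cells: all 15 were higher in the library labelled Brg1-reexpressed, with a median log2 fold change of 0.86, as all 15 were in GFP- over GFP+ cells, with a median of 1.57.

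Smarca2 levels did not separate deleted from sufficient cells under TMM, whereas under scaling by total reads they were lower in all 3 sufficient or reexpressed libraries than in all 3 deleted ones, as were those of 18.0% of all genes. It was read at 41.0 CPM in WT, 61.0 in mosaic Brg1-sufficient, 61.2 in mosaic Brg1-deleted, 66.2 in untreated rKO1, 52.5 in GFP+ and 38.7 in GFP- cells. The deleted libraries span 52.5 to 66.2 CPM, and the mosaic Brg1-sufficient library lies among them. Within mosaic females the sufficient cells had 0.997 times the level of the deleted cells, and the interval of this ratio, 0.925 to 1.07, bounds the difference between these libraries as far as counting error goes. In rKO1 mice Smarca2 was 1.36-fold lower in the reexpressed GFP- than in the deleted GFP+ cells (log2 -0.44, interval -0.59 to -0.29). In aTreg cells it stood at 45.6 CPM in the library labelled Brg1-deleted and 31.9 CPM in the one labelled Brg1-reexpressed, 1.43-fold lower in the latter (1.29 to 1.59). Against WT, Smarca2 was 1.61-fold higher in untreated rKO1 cells and 1.49-fold higher in mosaic Brg1-deleted cells, but it was equally 1.49-fold lower in WT than in the mosaic Brg1-sufficient cells, in which BRG1 is present. Smarca2 has 14269 bases of merged exons, the largest of the members, and once the trend with length over all genes was removed its log2 fold change in GFP- over GFP+ cells moved from -0.44 to -0.12.

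The ratio of the ATPase genes, taken per kb of exon within each library, does not depend on how libraries are scaled. Smarca2 stood at 0.212 of Smarca4 in WT, 0.360 in mosaic Brg1-sufficient and 0.304 in GFP- cells. It stood at 0.590 in mosaic Brg1-deleted, 0.684 in untreated rKO1 and 0.663 in GFP+ cells, so that the deleted and the other libraries did not overlap. The ratio was 1.64-fold lower in sufficient than in deleted mosaic cells (1.48 to 1.82) and 2.18-fold lower in GFP- than in GFP+ cells (1.90 to 2.51). Between libraries of the same BRG1 status, it was 1.70-fold lower in WT than in mosaic Brg1-sufficient cells (1.51 to 1.91). It was 1.03-fold lower in GFP+ than in untreated rKO1 cells (0.905 to 1.18). The denominator, Smarca4, is itself the altered gene. Under TMM, Smarca4 made up the whole of the mosaic difference, as Smarca2 was equal there, and both genes contributed in rKO1 cells. This split between the genes depends on the scaling. By total reads, the log2 fold changes of Smarca4 and Smarca2 were 0.58 and -0.14 in mosaic cells. In rKO1 cells they were 0.34 and -0.79. In the aTreg libraries the ratio was 0.291 and 0.244. Even in deleted cells Smarca4 transcripts, the trapped and floxed ones included, remained the larger part per kb, at 59.4% to 62.9% of the 2 genes. Their summed level was 16.4 CPM per kb in WT and 16.2 in mosaic Brg1-sufficient cells, against 9.23 to 11.6 in the deleted cells and 11.7 in GFP- cells.

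**Figure D1:**
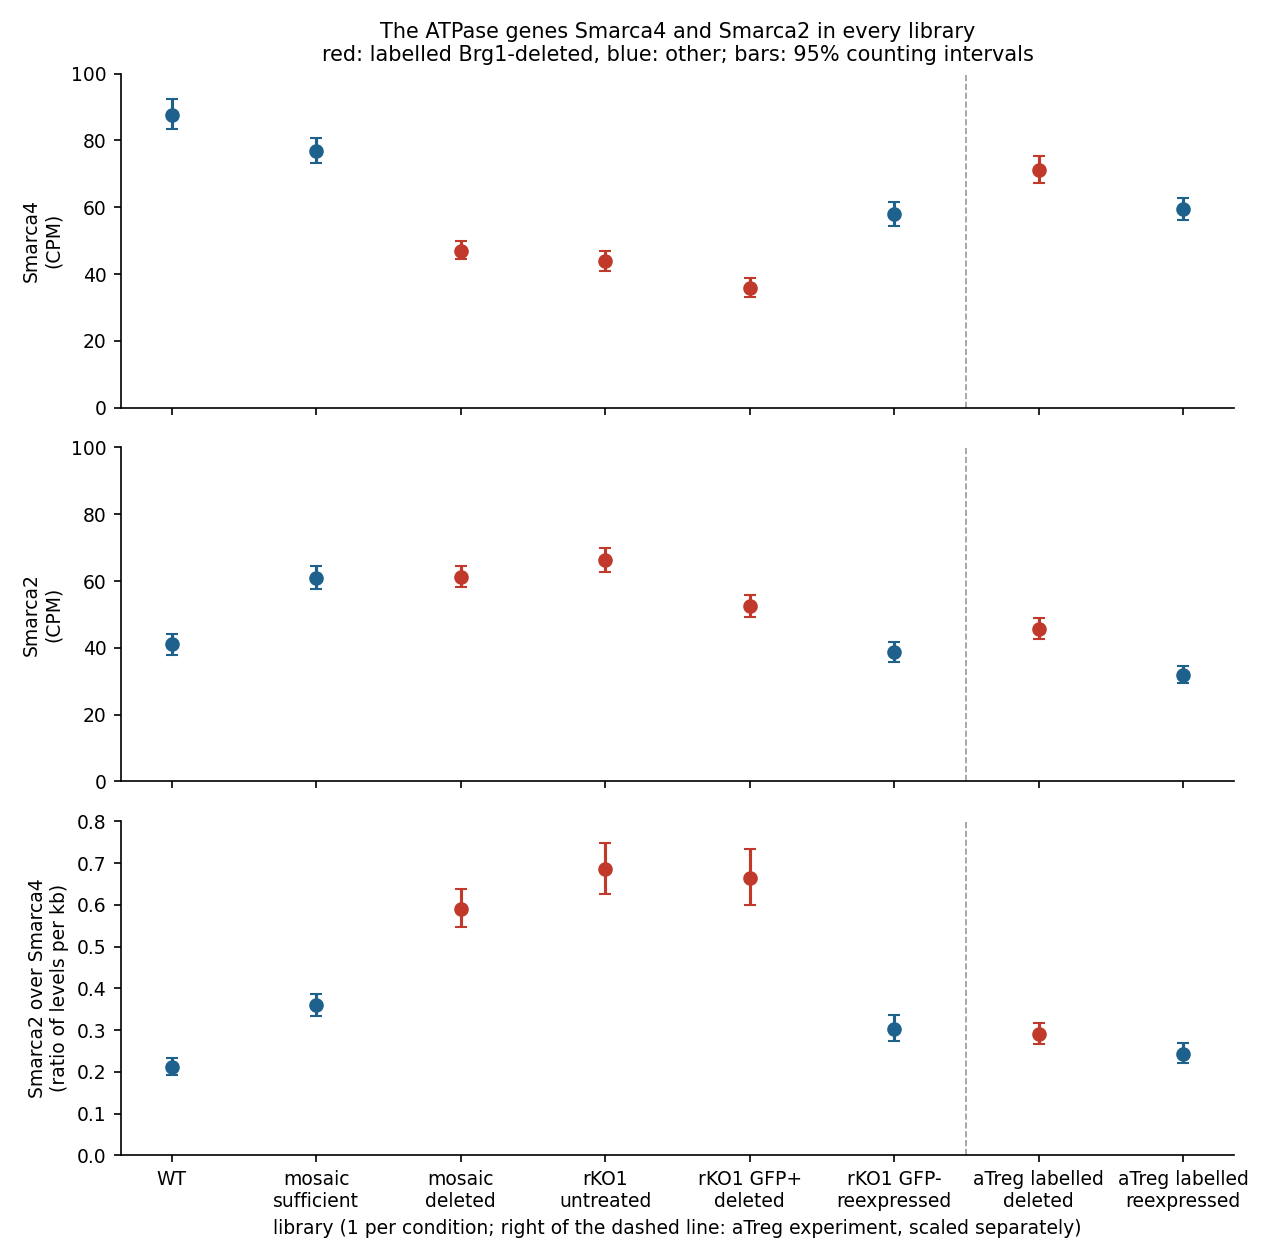
Levels of Smarca4 (top) and Smarca2 (middle) in CPM and the ratio of Smarca2 to Smarca4 per kb (bottom) in the 8 libraries, with red for libraries labelled Brg1-deleted, blue for the others and bars for 95% counting intervals. Smarca4 is under 50 CPM in the 3 red total Treg libraries, Smarca2 of the red and blue libraries overlaps, and the ratio is at 0.590 or more only in the red total Treg libraries.

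Most subunits were expressed in Treg cells. At 5 CPM or more in at least 1 total Treg library stood 25 of the 31 members, and 24 stood there in all 6 libraries. The exception was Bcl7a, which lay under this level in the GFP- library. Per kb of exon, Actb (cytoplasmic beta-actin, also a subunit of the ATPase module) was far above the rest, at a median of 4882 CPM per kb over the total Treg libraries. Bcl7b followed at 34.5, the T cell factor Bcl11b at 29.9, the core subunit Smarcd2 at 25.2 and the actin-related Actl6a at 21.9. Smarca4 stood at 8.10 CPM per kb, the 15th of the 31, and Smarca2 at 3.98, the 20th. The core subunits, some of which ncBAF lacks, lay between 5.19 (Smarcd1) and 25.2 (Smarcd2), apart from Smarcd3. The ncBAF scaffolds Bicra and Bicral, at 1.30 and 2.32, and Bcl7a, at 0.997, were the lowest of the 25.

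The 6 members under 5 CPM in every library each have a paralogue that was expressed. Actl6b, the neuronal paralogue of Actl6a, had 0 to 4 reads per library. Dpf1 had 0 to 4 reads and Dpf3 0 to 4 reads, where their paralogue Dpf2, of the same family of zinc finger subunits, had 46.4 to 77.0 CPM in total Treg cells. Smarcd3, the muscle and heart paralogue of Smarcd1 and Smarcd2, had 3 to 22 reads in total Treg cells and 24 and 64 in the aTreg libraries, but 48.2% of its exon bases are shared with antisense genes and the kit did not mark strand. Ss18l1, the paralogue of Ss18, had 16 to 94 reads. Bcl11a, known from B cells and plasmacytoid dendritic cells, had 0 to 33 reads, where its paralogue Bcl11b had 118 to 531 CPM in total Treg cells. No fold change is given for these 6 genes. At these depths 3 reads, taken as the floor, equal 0.123 to 0.180 CPM.

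**Figure D2:**
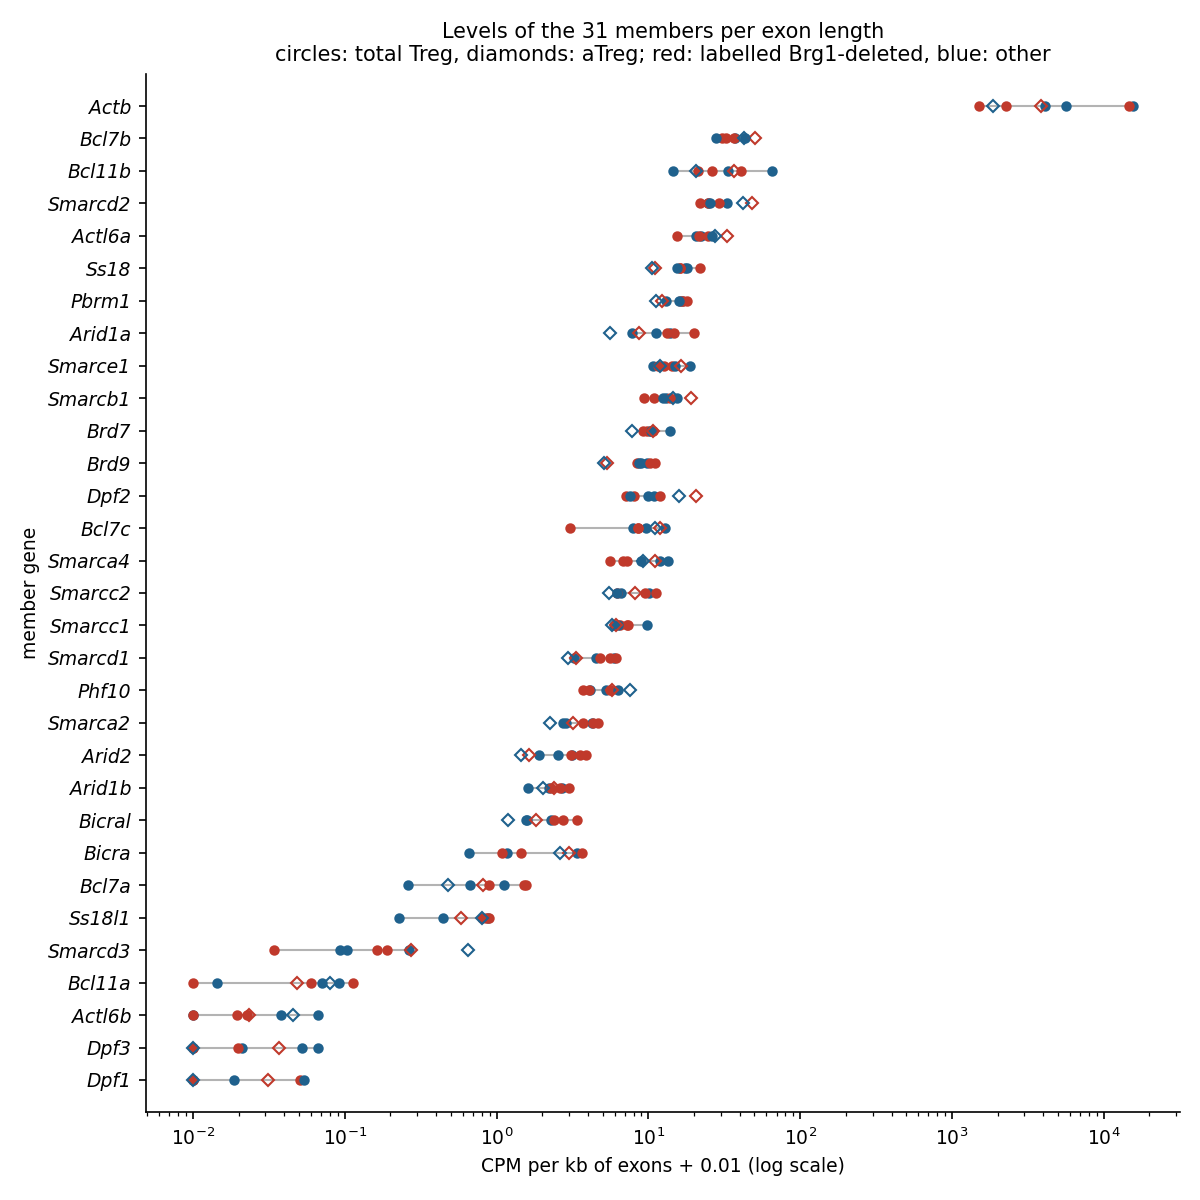
Level of each of the 31 members in CPM per kb of exon plus 0.01, on a log axis, with circles for total Treg and diamonds for aTreg libraries, and red for libraries labelled Brg1-deleted. The genes are ordered by their total Treg median, from 4882 for Actb down to Dpf1, and 6 genes lie under the others at the bottom.

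Between the sufficient and the deleted cells of mosaic females, only a few members differed. At least 2-fold was 1 of 25, Bcl7c, where 6.08% of all 10065 genes tested did so. At least 1.5-fold were 3 of 25, namely Bcl7c, Smarca4 and Bcl11b, all higher in sufficient cells, where 20.1% of all genes did so, 11.8% higher and 8.30% lower. Of any size, 11 were higher and 14 lower, where 53.4% of all genes were higher. The median log2 fold change of the 25 was -0.05 and that of all genes 0.03. Of the 42 genes of other remodellers (ISWI, CHD and NuRD, INO80 and SRCAP/TIP60, and others of the SNF2 family), 39 were tested and 6 differed at least 1.5-fold, all higher in sufficient cells, with Hells, Chd4, Baz1a and Gatad2a in front at log2 1.30, 0.95, 0.91 and 0.90.

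In rKO1 mice on Day 7, more members differed between GFP- and GFP+ cells. At least 2-fold were 3 of 25, with Actb higher and Bcl7a and Bicra lower in GFP- cells, where 12.8% of all 10308 genes did so. At least 1.5-fold were 9 of 25, 3 higher (Actb, Smarca4, Bcl7c) and 6 lower (Bcl7a, Bicra, Arid2, Arid1a, Arid1b, Bicral), where the share over all genes was 30.8%. The shares over all genes were 17.1% higher and 13.7% lower. Of any size, 10 members were higher and 15 lower, where 54.7% of all genes were higher. The median was -0.05 for the members and 0.06 for all genes. Of 38 other remodeller genes tested, 8 differed at least 1.5-fold, 2 higher and 6 lower. The 6 members that were lower had a median of 10.1 kb of exons, against 6.50 kb for the other 19 members and 4.18 kb for all genes tested.

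In aTreg cells, 24 of 25 members were lower in the library labelled Brg1-reexpressed than in the one labelled Brg1-deleted, and Phf10 alone was higher. The median of the members was -0.26, and 31 of 39 other remodeller genes were lower too, with a median of -0.27, against -0.06 over all 10035 genes, of which 44.9% were higher. Over all genes the median fell with exon length here too. It was 0.22 under 2 kb, where no tested member lies, -0.15 at 5 to 10 kb and -0.19 at 10 kb or more. The 15 members with 5 to 10 kb had a median of -0.37, and the 4 with 10 kb or more -0.38. The part of length in the count of members was not tested. At least 2-fold was 1 member, Actb (6.44% of all genes). At least 1.5-fold were 5 members, Actb, Bcl11b, Bcl7a, Arid1a and Bicral, all lower, where 19.9% of all genes differed so much, 10.5% higher and 9.39% lower.

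These counts were set beside pairs of libraries with the same BRG1 status. WT and mosaic Brg1-sufficient cells differed at least 1.5-fold in 7 of 25 members, all lower in WT, and in 28.7% of all genes (17.0% lower in WT). At least 2-fold were Actb and Bicra, and 9.32% of all genes. Those 7 were Actb, Bicra, Bcl11b, Smarce1, Bcl7a, Smarcc1 and Smarcc2. GFP+ and untreated rKO1 cells, both deleted, differed in 3 members (Actb, Bcl7a and Smarcc2) and in 15.4% of all genes, and in no member but 4.42% of all genes at least 2-fold. A library-to-library band was drawn from these pairs, as the absolute log2 fold change within which 95% of the 500 genes nearest in expression stay, and the wider of both was used. Beyond it lay Bcl7c in the mosaic comparison (3.47% of all genes lay beyond), Actb, Bcl7a and Bicra in rKO1 cells (6.66%), and Actb in aTreg cells (2.56%). For aTreg cells the band was carried over from the total Treg experiment, and whether it holds there was not tested. Smarca4 lay within the band in all 3 comparisons.

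**Figure D3:**
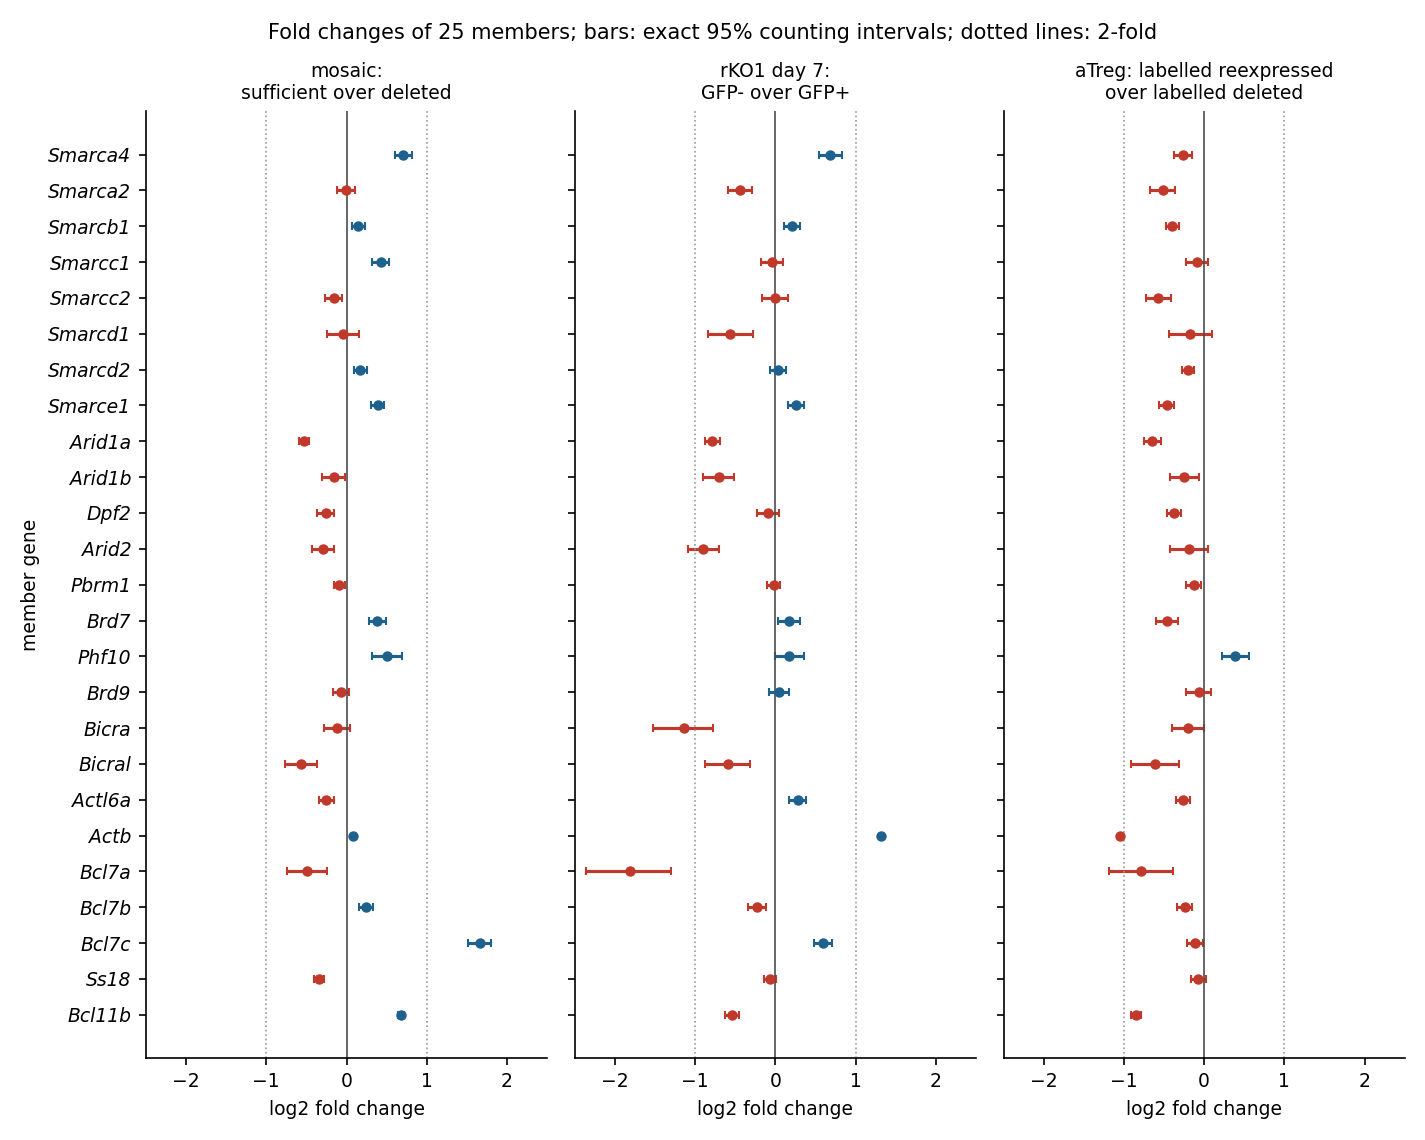
Log2 fold change of the 25 members tested in the mosaic, rKO1 Day 7 and aTreg comparisons, ordered by role, with bars for exact 95% counting intervals, dotted lines at 2-fold, and blue for values above and red for values under 0. Bcl7c at 1.66 stands out in the mosaic panel, Bcl7a at -1.81 and Actb at 1.31 in the rKO1 panel, and 24 of 25 points lie under 0 in the aTreg panel.

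Of the core subunits, which hold the complex together around SMARCC dimers, none of the 6 tested differed 1.5-fold in the 3 comparisons. Over all genes, 20.1% did so in mosaic, 30.8% in rKO1 and 19.9% in aTreg cells. Between WT and mosaic Brg1-sufficient cells, both with BRG1, 3 of the 6 did so (28.7% of all genes). Between GFP+ and untreated rKO1 cells, both deleted, 1 of the 6 did so (15.4%). Smarcb1, a nucleosome-facing subunit that is lost in rhabdoid tumours, ranged from 74.0 CPM in untreated rKO1 to 122 CPM in mosaic Brg1-sufficient cells. Smarcc1 and Smarcc2 made up near equal parts of their pair per kb, Smarcc1 between 39.5% and 51.1% in total Treg cells. Smarcd2 held 79.2% to 88.0% of the SMARCD family in total Treg cells. The largest core differences were for Smarcc2 in aTreg cells, at log2 -0.57, and Smarcd1 in GFP- over GFP+ cells, at -0.56. Over the 6 total Treg libraries the range from lowest to highest was 1.49-fold for Smarcd2 and 1.90-fold for Smarcd1, with the other 4 core subunits between.

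The ARID subunits were the members most evenly lower in GFP- cells. Arid1a, the large DNA-binding subunit of canonical BAF, stood at 129 CPM in WT, 159 in mosaic Brg1-sufficient, 229 in mosaic Brg1-deleted, 170 in untreated rKO1, 153 in GFP+ and 88.8 in GFP- cells. The GFP- library was the lowest and the mosaic Brg1-deleted library the highest, and the mosaic Brg1-sufficient library lay above GFP+ cells, so the 2 sets of libraries overlapped, although they did not under scaling by total reads. Arid1a was lower with BRG1 in each comparison, 1.44-fold in mosaic (log2 -0.52, interval -0.59 to -0.46), 1.72-fold in rKO1 (1.62 to 1.83) and 1.56-fold in aTreg cells by label (99.9 against 63.9 CPM, 1.45 to 1.68). Its paralogue Arid1b stood at 27.7 CPM in WT, 33.8 and 37.8 in mosaic sufficient and deleted, 28.6 in untreated rKO1, 32.8 in GFP+ and 20.2 in GFP- cells. Only the GFP- library lay clearly apart, 1.63-fold under GFP+ (1.42 to 1.87), and the aTreg libraries held 30.01 and 25.3 CPM. The split between both paralogues moved little, with Arid1a at 82.9% to 86.9% of the pair per kb in total Treg cells. Dpf2, the DPF subunit of BAF in most tissues, differed less than 1.5-fold in all 3 comparisons.

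Of the PBAF subunits, Arid2, the scaffold that takes the place of ARID1, stood at 27.3 CPM in WT, 33.8 and 41.4 in mosaic sufficient and deleted, 33.2 in untreated rKO1, 37.8 in GFP+ and 20.3 in GFP- cells. It was 1.86-fold lower in GFP- than in GFP+ cells (1.63 to 2.12), and the mosaic difference in the same direction was 1.22-fold (log2 -0.29, interval -0.43 to -0.15). The aTreg libraries held 17.5 CPM by the label Brg1-deleted and 15.3 CPM by the label Brg1-reexpressed. Of the 25 members tested, Arid1a, Arid1b, Arid2 and Smarca2 are the 4 with over 10 kb of exons. Their median in GFP- over GFP+ cells was -0.74 on the log2 scale where that of 950 genes of such length was -0.24. With the length trend removed, Arid1a, Arid1b and Arid2 stood at -0.53, -0.42 and -0.66. Pbrm1, a subunit with a row of bromodomains, was the steadiest of these genes, with 116 to 158 CPM over the total Treg libraries, and Brd7 stood at 48.2 to 73.2 CPM. Phf10 was the sole member higher with BRG1 in all 3 comparisons by label, at log2 0.51, 0.17 and 0.39, each under 1.5-fold, where 21.2% of 9224 genes tested in all 3 were so. Lower in all 3 were 12 of 25 members and 19.5% of all genes. Both counts rest on the aTreg labels: with that comparison turned, 7 members were higher in all 3 (Actb, Bcl7c, Brd7, Smarca4, Smarcb1, Smarcd2 and Smarce1, against 15.8% of all genes), Phf10 was not, and 0 were lower (7.99%).

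**Figure D4:**
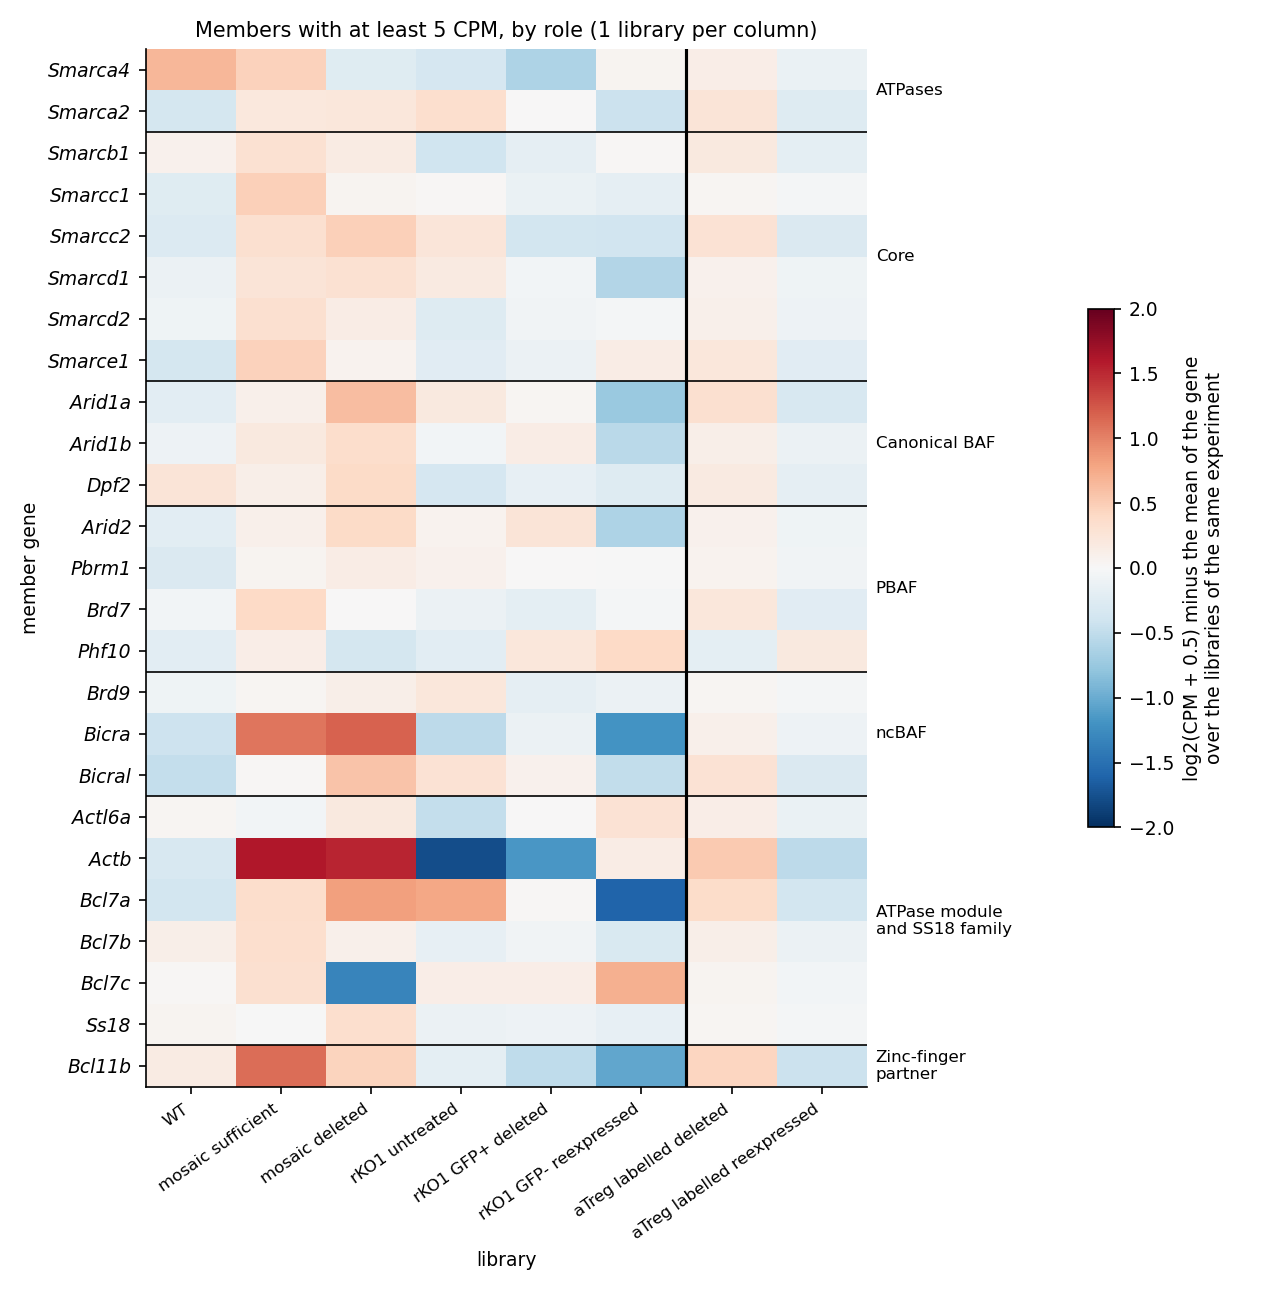
Members with at least 5 CPM, grouped by role, as log2(CPM + 0.5) minus the mean of the gene over the libraries of the same experiment (6 total Treg and 2 aTreg columns). Arid1a, Arid1b, Arid2, Bicra, Bcl7a and Bcl11b are lowest in the GFP- column, Bcl7c is low in the mosaic deleted column alone, and Actb and Bicra are high in both mosaic columns.

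Among the ncBAF genes, the bromodomain subunit Brd9 was level (58.3 to 76.9 CPM in total Treg cells), while its scaffold partners were not. Bicra stood at 26.8 CPM in mosaic Brg1-sufficient and 29.1 in mosaic Brg1-deleted cells, but at 9.26 in WT, 8.49 in untreated rKO1, 11.4 in GFP+ and 5.18 in GFP- cells. Both mosaic libraries thus lay above the other total Treg libraries, whatever their BRG1 status. In the mosaic comparison itself the sufficient cells were 1.08-fold lower (0.970 to 1.21), and WT was 2.89-fold lower than mosaic Brg1-sufficient. GFP- cells were 2.20-fold lower than GFP+ cells (1.71 to 2.87, from 87 and 210 reads). The part of BRG1 in these levels was not tested. In aTreg cells Bicra had 23.9 and 20.8 CPM. Bicral stood at 10.4 CPM in WT, 14.9 in mosaic Brg1-sufficient and 10.3 in GFP- cells, and at 22.1 in mosaic Brg1-deleted, 18.1 in untreated rKO1 and 15.6 in GFP+ cells. The highest sufficient library (14.9) and the lowest deleted one (15.6) were close, and only their values did not overlap. Their counting intervals did, at 13.3 to 16.7 CPM in mosaic Brg1-sufficient and 13.8 to 17.5 CPM in GFP+ cells. Bicral was the sole member that was lower in every sufficient or reexpressed library than in every deleted one, where 7.31% of 11037 genes were. It was so under each scaling, but not alone: by median of ratios Pbrm1 was too (7.20% of all genes), and by total reads 7 further members were (18.0% of all genes). The size was alike in each comparison, 1.48-fold in mosaic (1.29 to 1.71), 1.51-fold in rKO1 (1.25 to 1.84) and 1.52-fold in aTreg cells by label (1.24 to 1.88, from 12.3 and 8.08 CPM). Of its exon bases, 11.3% are shared with an antisense gene, and in total Treg cells its length was taken from the values.

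The ATPase module and its neighbours held the largest differences. Bcl7c, a small subunit of the BCL7 family, stood at 56.8 CPM in WT, 69.7 in mosaic Brg1-sufficient, 22.1 in mosaic Brg1-deleted, 61.3 in untreated rKO1, 61.3 in GFP+ and 92.3 in GFP- cells. A single library, mosaic Brg1-deleted, was low, and the other deleted libraries lay among the sufficient ones. The mosaic difference was 3.16-fold (2.86 to 3.49), that in rKO1 cells 1.504-fold (1.39 to 1.63) in the same direction, and the aTreg libraries held 86.5 and 79.9 CPM. Bcl7a, its paralogue, was scarce and went the other way, with 6.25 CPM in WT, 10.5 and 14.8 in mosaic sufficient and deleted, 14.3 in untreated rKO1, 8.37 in GFP+ and 2.38 in GFP- cells. The 3.51-fold difference between GFP- and GFP+ cells (2.47 to 5.12) rests on 40 and 154 reads, and untreated rKO1 and GFP+ cells, both deleted, differed 1.71-fold. In aTreg cells Bcl7a had 7.69 and 4.47 CPM, 1.72-fold lower by the label Brg1-reexpressed (1.31 to 2.27). Bcl7b, at 66.6 to 104 CPM, remained the main member of the family at 68.0% to 88.8% of the summed level per kb.

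Actb was the most variable member, at 10996 CPM in WT, 41586 in mosaic Brg1-sufficient, 39340 in mosaic Brg1-deleted, 4008 in untreated rKO1, 6108 in GFP+ and 15161 in GFP- cells. Both mosaic libraries were far above the others, whatever their BRG1 status. It was 2.48-fold higher in GFP- than in GFP+ cells (log2 1.31, interval 1.30 to 1.32) but 2.06-fold lower by label in aTreg cells (10357 against 5017 CPM). It differed 1.06-fold in mosaic females. Its coding sequence is 88.7% identical to that of Actg1, gamma-actin, and how the counting divided reads between both was not tested. Actg1 stood at 1084 CPM in WT, 1642 in mosaic Brg1-sufficient and 1661 in mosaic Brg1-deleted cells. In rKO1 mice it stood at 715 CPM in untreated, 964 in GFP+ and 2063 in GFP- cells. The ratio of Actb to Actg1 per kb was 25.1 and 23.5 in the mosaic libraries and 5.56 to 10.1 in the other total Treg libraries. Actl6a, the actin-related subunit, differed little, at log2 -0.25 in mosaic and 0.28 in rKO1 cells. Ss18, of which a fusion drives synovial sarcoma, stood at 140 to 199 CPM in total Treg cells and held 95.1% to 98.6% of its family.

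Bcl11b, a zinc finger factor of the T lineage that binds BAF, stood at 273 CPM in WT, 531 in mosaic Brg1-sufficient, 332 in mosaic Brg1-deleted, 212 in untreated rKO1, 172 in GFP+ and 118 in GFP- cells. It was 1.60-fold higher with BRG1 in mosaic females (1.55 to 1.65) and 1.45-fold lower with BRG1 in rKO1 mice (1.37 to 1.54). In aTreg cells it had 298 and 166 CPM, 1.80-fold lower by the label Brg1-reexpressed (1.72 to 1.88). WT, in which BRG1 is present, lay under mosaic Brg1-deleted cells, so the levels did not order by BRG1.

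**Figure D5:**
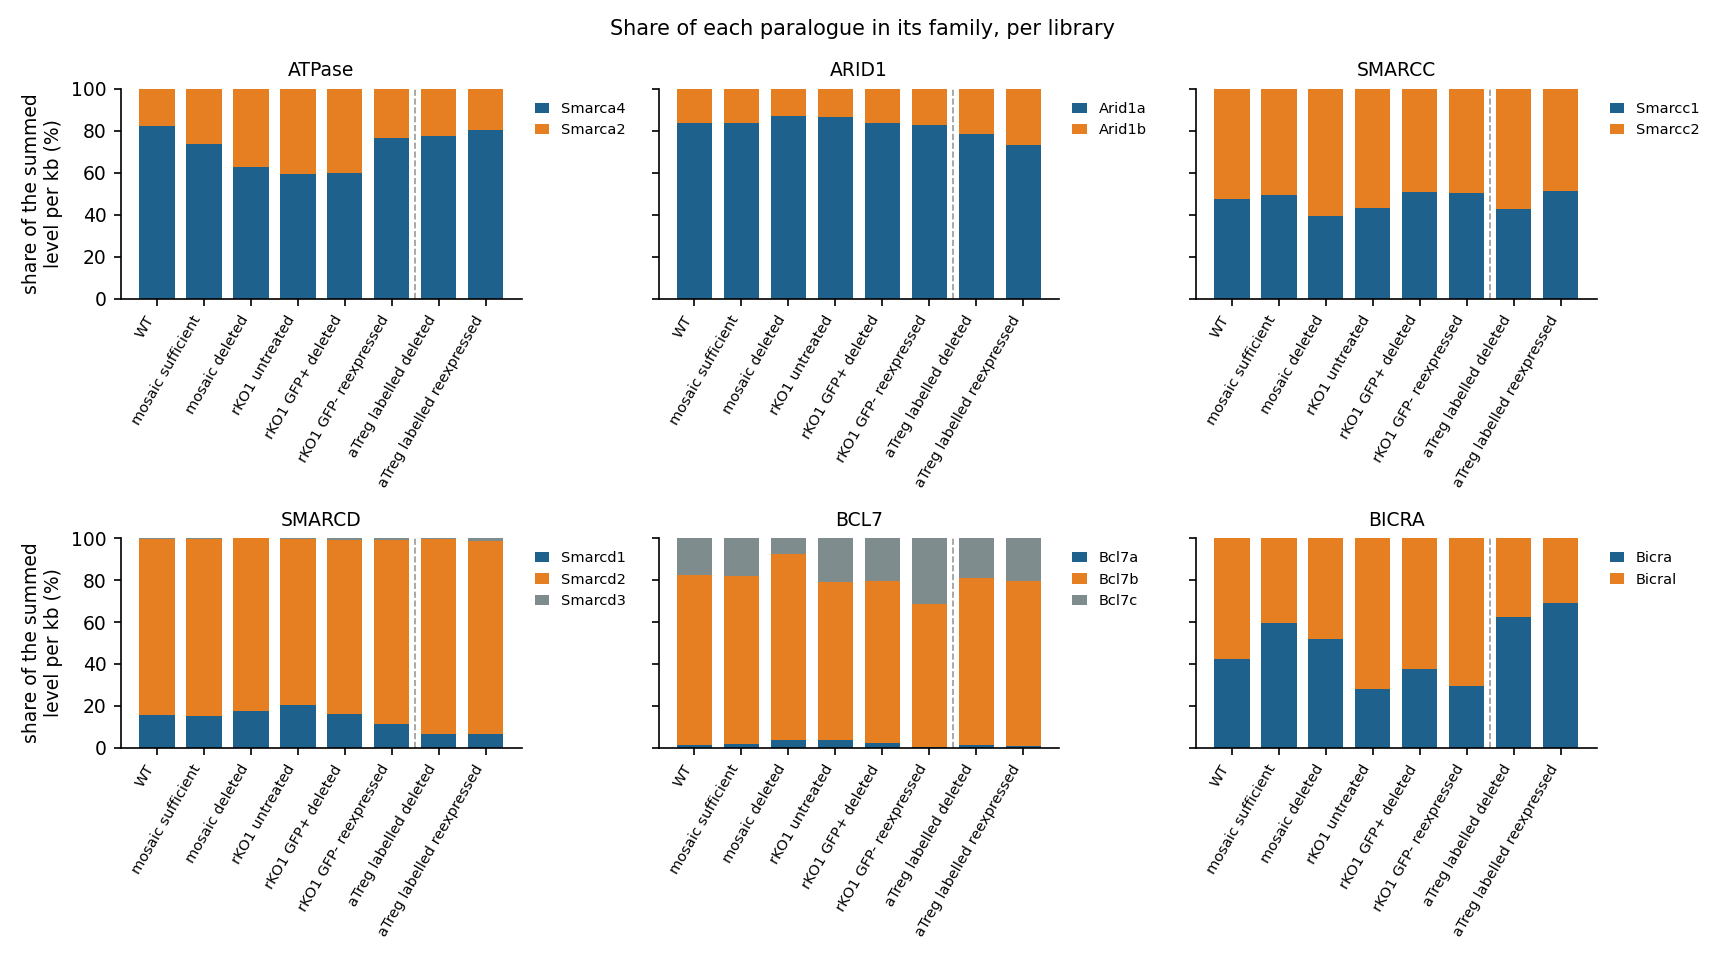
Share of each paralogue in the summed level per kb of its family, in percent, for 6 families and 8 libraries, with the aTreg libraries right of the dashed line. Smarca2 takes 37.1% to 40.6% of the ATPase pair in the 3 deleted total Treg libraries and 17.5% to 26.5% in the other 3, Bcl7c is at 7.4% of its family in mosaic Brg1-deleted cells, and the ARID1 and SMARCC splits move less.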

How the data were processed

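The authors deposited FPKM values per Ensembl gene, 1 table per library, from SMART-Seq v4 cDNA of sorted cells (CD4+CD25+YFP+, or YFP- for the mosaic Brg1-sufficient cells, and CD44hi CD62Llo in addition for aTreg cells) read as paired ends on an Illumina HiSeq. The submitters' processing notes name HISAT2 2.0, StringTie 1.3.3b, featureCounts 1.5.0-p3 and mm10, without giving their roles. The annotation release is not given in the sources used here.

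Reads were recovered from FPKM with the gene's length in GENCODE M21, all exons merged, and with the library total that made values whole within 0.02 reads. This held in every library for 24312 of 26057 genes with reads (93.3%) in total Treg cells and for 21242 of 21242 in aTreg cells. For 1505 more genes, Smarcd1, Bicral and Ss18 among them, a length was taken from the values, 203 were rounded and 37 had no length. FPKM totals implied 0.814 to 1.08 times these reads. Of 53465 identifiers, 53360 were in the annotation.

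Libraries were scaled by an own TMM, over 6 total Treg and over 2 aTreg libraries. Fold changes used a prior of 0.125 reads, and a gene was tested where 1 of the 2 libraries reached 5 CPM. The count model assumed for counts was not used, as the values are FPKM with 1 library per condition. The same steps were tested on simulated data. Members and lists were chosen with earlier results of these data known. Values in every library are given for Smarca4, Smarca2 and members with a 1.5-fold difference in 1 of the 3 main comparisons, and reads for members near 0. In all, 9 pairs of libraries were compared. Alternatives were other scalings, filters, priors, FPKM itself (with 0.1 added), and removal of a trend with length or GC content. The last of these, the count without overlap under other scalings and the turned aTreg comparison were added after the data were seen. Python 3.11.15, NumPy 2.4.6, SciPy 1.17.1, pandas 2.3.3, statsmodels 0.14.6, Biopython 1.88 and matplotlib 3.10.9 were used.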

Additional observations from a re-analysis of the deposited data

Results flagged for a closer look

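Of the 25 members tested, 20 had the same sign in the mosaic and rKO1 Day 7 comparisons, as had 64.5% of 9224 genes, so opposite signs were common. For 3 members, the mosaic and the rKO1 Day 7 comparisons gave opposite directions with counting intervals that left out 0 on either side. Actl6a had a log2 fold change of -0.25 in sufficient over deleted mosaic cells and of 0.28 in GFP- over GFP+ cells. Bcl7b had 0.24 and -0.23. Bcl11b had 0.68 and -0.54, the widest gap of the 3. All 3 lay within the library-to-library band in both comparisons, and the intervals cover counting error alone. How many of all genes met the same interval rule was not counted. With 1 library per condition the difference between the comparisons was not tested.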

How the results depend on the processing

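No paired analysis was possible because each condition has 1 library and the labels carry no replicate numbers. For the same reason no replicate could be left out. Among the recomputed main values 152 stayed within their limits and 25 moved, and among values of single members 219 stayed and 31 moved. None of these turned a called direction. Scaling by total reads in place of TMM moved the median of all genes in GFP- over GFP+ cells from 0.06 to -0.29 on the log2 scale. With it, Smarca4 had a log2 fold change of 0.58 in mosaic and 0.34 in rKO1 cells, Smarca2 -0.14 and -0.79, and the median of the members in rKO1 cells -0.40. The number at least 2-fold in rKO1 cells was 5, no member and 8 members (Smarca2, Arid1a, Arid1b, Arid2, Pbrm1, Brd9, Bicral, Ss18) were higher and lower without overlap, that is, 0 and 8 (2.43% and 18.0% of all genes), and Smarca4 was no longer among them. By median of ratios 2 were lower, Pbrm1 and Bicral (7.20% of all genes). With the aTreg comparison turned, 7 members were higher and 0 lower in all 3 comparisons, in place of 1 and 12. At a filter of 1 CPM, mosaic cells had 2 members at 2-fold and 5 at 1.5-fold and aTreg cells 2 at 2-fold. With no filter, mosaic cells had 5 and 8, rKO1 cells 7 at 2-fold and aTreg cells 5 and 10, since members at a few reads enter. With the length trend removed, Smarca2 stood at -0.12 and the log2 ratio of the ATPase genes at -0.89 in rKO1 cells, and aTreg cells had 3 members at 1.5-fold. The band of the rKO1 pair alone left 2, 6 and 2 members outside it in mosaic, rKO1 and aTreg cells, and 10.1%, 17.1% and 8.64% of all genes.

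Depth was not the limit for most members (171 or more reads in total Treg cells except Bcl7a, Bicra and the 6 scarce genes). What the files cannot give is the spread between mice, and reads by exon of Smarca4.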
